A study of Mus musculus with 4 samples.

Results

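Endothelin signalling in the embryonic mouse heart was read here through 4 genes, the ligand gene Edn1, the converting enzyme gene Ece1 and the receptor genes Ednra and Ednrb. The 4 members were chosen by symbol from the 27998 genes of the count tables, a rule that uses no measured value. Single cells had been prepared from regions microdissected out of wild-type CD1 hearts at embryonic day 16.5, with no other genotype and no treatment. Each of the 4 regions was 1 library of 10x Genomics 3' tags: the sinoatrial node (SAN) region, the region of the atrioventricular node and His bundle (AVN/His), and the bundle branch and Purkinje fiber (BB/PF) regions of the left ventricle and of the right one. No label says how many hearts went into a library or whether libraries shared animals, so a region has no replicate and regions were not tested against each other.

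Endothelin-1, the peptide encoded by Edn1, is made as a large precursor that is trimmed by proprotein convertases and then by the endothelin-converting enzyme encoded by Ece1. It acts on 2 G protein-coupled receptors: Ednra, which in vascular smooth muscle and cardiac myocytes drives calcium release and contraction, and Ednrb, which in endothelial cells clears the peptide and drives release of nitric oxide, and which neural crest cells need to colonise the gut and skin. In chick embryos, endothelin has been used to drive cardiac myocytes towards a Purkinje-like fate, which is why its sources and receptors near the conduction system are of interest.

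After barcodes with fewer than 500 genes were left out, 21035 of 22805 cells remained, 4356 to 5934 per library, with median unique molecular identifier (UMI) counts of 8480 to 9272 per cell. Cell classes were rebuilt by clustering without the endothelin genes and are called by their markers, as "endocardial-like". All 8 endocardial markers held UMIs in endocardial-like cells of 3 libraries, and 7 of 8 in the left BB/PF region. Endocardial marker UMIs summed to 23.2 to 36.3 per 10000 there and to 0.286 to 3.26 per 10000 in coronary capillary-like cells. Endothelial cells of 5 clusters stayed unnamed, 4 of them led by hemoglobin, myocyte or collagen genes and 1 by Eln, and their Edn1 levels together were 0.697, 0.258, 0.0641 and 0.130 UMIs per 10000 in the SAN, AVN/His, left and right BB/PF regions. Across libraries 230 barcodes occurred more than once, at most 0.961% of the cells of any library in a pair.

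A window around an annotated start of each gene, from 250 bases upstream to 50 bases downstream, is shown because Edn1, Ece1 and Ednrb were all higher in endocardial-like than in coronary capillary-like cells while Ednra was near 0 in both. The sequences are from RefSeq on GRCm38.p6, and all 4 genes had an entry. Edn1 lies at chr13:42301476-42307990 on the plus strand with 5 exons, Ece1 at chr4:137862237-137965229 on the plus strand with 20 exons, Ednra at chr8:77663031-77724464 on the minus strand with 8 exons and Ednrb at chr14:103814625-103844402 on the minus strand with 8 exons. The windows are chr13:42301226-42301525 for Edn1, chr4:137913308-137913607 for Ece1, chr8:77724403-77724702 for Ednra and chr14:103843652-103843951 for Ednrb. Each covers the promoter next to a start that RefSeq gives and the first transcribed bases, and capitals mark the motifs found on either strand. The Ece1 and Ednrb windows lie inside the gene spans given above. For Ece1, RefSeq gives 4 starts, and the one shown is not the start at the first base of the gene.
Edn1: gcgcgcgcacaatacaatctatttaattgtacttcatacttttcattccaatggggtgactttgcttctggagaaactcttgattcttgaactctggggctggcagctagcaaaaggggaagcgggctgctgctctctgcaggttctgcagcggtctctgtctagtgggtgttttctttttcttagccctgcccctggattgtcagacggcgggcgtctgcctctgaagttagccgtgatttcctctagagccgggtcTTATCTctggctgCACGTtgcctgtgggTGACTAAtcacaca
Ece1: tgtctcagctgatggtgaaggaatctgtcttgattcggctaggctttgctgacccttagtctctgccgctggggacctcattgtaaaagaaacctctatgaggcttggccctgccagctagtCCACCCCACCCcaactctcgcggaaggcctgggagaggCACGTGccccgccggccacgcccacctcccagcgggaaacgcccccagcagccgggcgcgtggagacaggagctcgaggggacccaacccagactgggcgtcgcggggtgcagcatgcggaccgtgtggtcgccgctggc
Ednra: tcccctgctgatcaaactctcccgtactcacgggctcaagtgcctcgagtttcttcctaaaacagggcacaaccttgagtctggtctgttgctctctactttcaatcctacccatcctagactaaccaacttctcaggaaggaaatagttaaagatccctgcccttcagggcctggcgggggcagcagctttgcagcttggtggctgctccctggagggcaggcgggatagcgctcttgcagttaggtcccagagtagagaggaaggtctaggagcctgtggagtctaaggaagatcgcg
Ednrb: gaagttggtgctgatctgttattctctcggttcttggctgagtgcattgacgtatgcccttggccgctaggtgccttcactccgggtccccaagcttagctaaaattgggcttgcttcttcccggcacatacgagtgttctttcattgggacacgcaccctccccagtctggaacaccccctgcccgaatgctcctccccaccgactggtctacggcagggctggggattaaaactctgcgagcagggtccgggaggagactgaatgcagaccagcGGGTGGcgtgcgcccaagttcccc

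The search covered the GATA letters AGATAA, the AP-1 letters TGANTCA and their variant TGACTAA, the CACCC letters CCACCC, the hypoxia response core ACGTG, the TATA letters TATAAA, the ETS letters CCGGAA and the NFAT letters TGGAAA, on both strands. The Edn1 window held TTATCT, the reverse of the GATA letters, 9 bases downstream of the start, CACGT, the reverse of the hypoxia core, at base 22, and the AP-1 variant at base 37. The variant was added after the sequence had been seen. The GATA letters occurred in 11.2%, the hypoxia core in 19.6% and the AP-1 variant in 2.35% of 32851 promoter windows of the same length.

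Of the 4 Ece1 starts in RefSeq only the one shown held any of the motifs. It had 2 CCACCC matches that share 1 base, and CACGTG, which is the hypoxia core read on both strands. The Ednrb window held GGGTGG, the reverse of the CACCC letters, 27 bases downstream of its start. CCACCC occurred in 31.5% of all windows, and the Ednra window held none of the 8 motifs. The shares of all windows are for single windows, whereas the Ece1 window shown was the only one of 4 with a motif, so they are no measure for it. Counts of 3' tags cannot tell which Ece1 start was used.

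Among named endothelial classes with at least 20 cells in a library, the ligand gene Edn1 was highest in endocardial-like cells, the endothelial lining of the chambers. It had 2.10 (95% interval 1.94 to 2.27), 2.28 (1.93 to 2.67), 2.04 (1.54 to 2.66) and 1.6 (1.34 to 1.89) UMIs per 10000 in the SAN, AVN/His, left BB/PF and right BB/PF regions, a mean of 2.0 ± 0.29 (SD, n = 4 libraries). The intervals are exact Poisson or Clopper-Pearson ones and cover counting error only. Valve endothelial-like cells had 0.561 in the SAN region and 0.565 in the AVN/His region. The 7 valve endothelial-like cells of the left BB/PF region held 10 Edn1 UMIs, a level of 1.99 that lies within the endocardial-like range.

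Edn1 UMIs were found in 60.7%, 60.3%, 56.7% and 42.4% of endocardial-like cells in the same order of regions, at median depths of 7074 to 9901 UMIs per cell. In macrophage-like cells, set beside them as a class of low expected expression, the shares were 4.13%, 1.18%, 0% of 22 cells and 1.10% at median depths of 5840 to 7107. Those of the SAN region held 34 Edn1 UMIs, so they are no sure floor there. With every cell thinned to 1500 UMIs the endocardial-like shares were 22.9%, 23.5%, 16.7% and 17.6%, and the macrophage-like ones 0.917% in the SAN region and 0% elsewhere. The endocardial-like shares as counted lay above the macrophage-like ones in every region at both depths. In the left BB/PF region this rests on 30 endocardial-like and 22 macrophage-like cells, too few to separate the thinned shares firmly.

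Edn1 in coronary capillary-like cells differed widely between libraries, and the class was made up of different clusters in them. The cluster led by Fabp4 and Gpihbp1 held 4 of the 107 cells of the class in the SAN region, against 129 of 236, 34 of 153 and 104 of 253 in the AVN/His, left and right BB/PF regions. The Edn1 level of the class was 1.31 (1.13 to 1.52) UMIs per 10000 in the SAN region, 0.127 (0.0922 to 0.172) in the AVN/His region, 0.00348 (1 UMI in 153 cells) in the left BB/PF region and 0.0197 (0.00903 to 0.0375) in the right BB/PF region. A UMI was found in 43.0%, 8.05%, 0.654% and 3.56% of the cells. The SAN region thus came nearest to the endocardial-like level, the AVN/His region lay below it, and the intervals of both stood clear of those of the BB/PF regions, which overlapped.

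Most of the SAN Edn1 signal came from 1 cluster, led by Aplnr (the apelin receptor gene), Aqp1 (a water channel gene) and Junb (an immediate early gene). Its 57 SAN cells held 158 of the 173 Edn1 UMIs of the class there, a level of 2.45 UMIs per 10000. The same cluster had 0.497 in 25 AVN/His cells and 0.0220 in 58 right BB/PF cells. The proliferating capillary-like cluster, led by Hmgb2 and Ube2c, had 0.220 in its 46 SAN cells and at most 0.0237 in the other regions.

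Values that moved with this were looked at. Endocardial marker UMIs in capillary-like cells summed to 3.26 per 10000 in the SAN region, with 7 of 8 markers holding UMIs, and to 0.286 to 0.759 in the other regions. Capillary marker UMIs summed to 60.4 per 10000 in the SAN region and to 106 to 147 elsewhere, and their part in the result was not tested. A list of 8 immediate early genes, among them Fos, Jun and Egr1, summed to 15.3 per 10000 in the SAN cells of the Aplnr cluster, 20.3 in its AVN/His cells and 16.7 in its right BB/PF cells. That list was chosen after the clusters had been seen. Its part in the Edn1 levels was not tested.

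**Figure D1:**
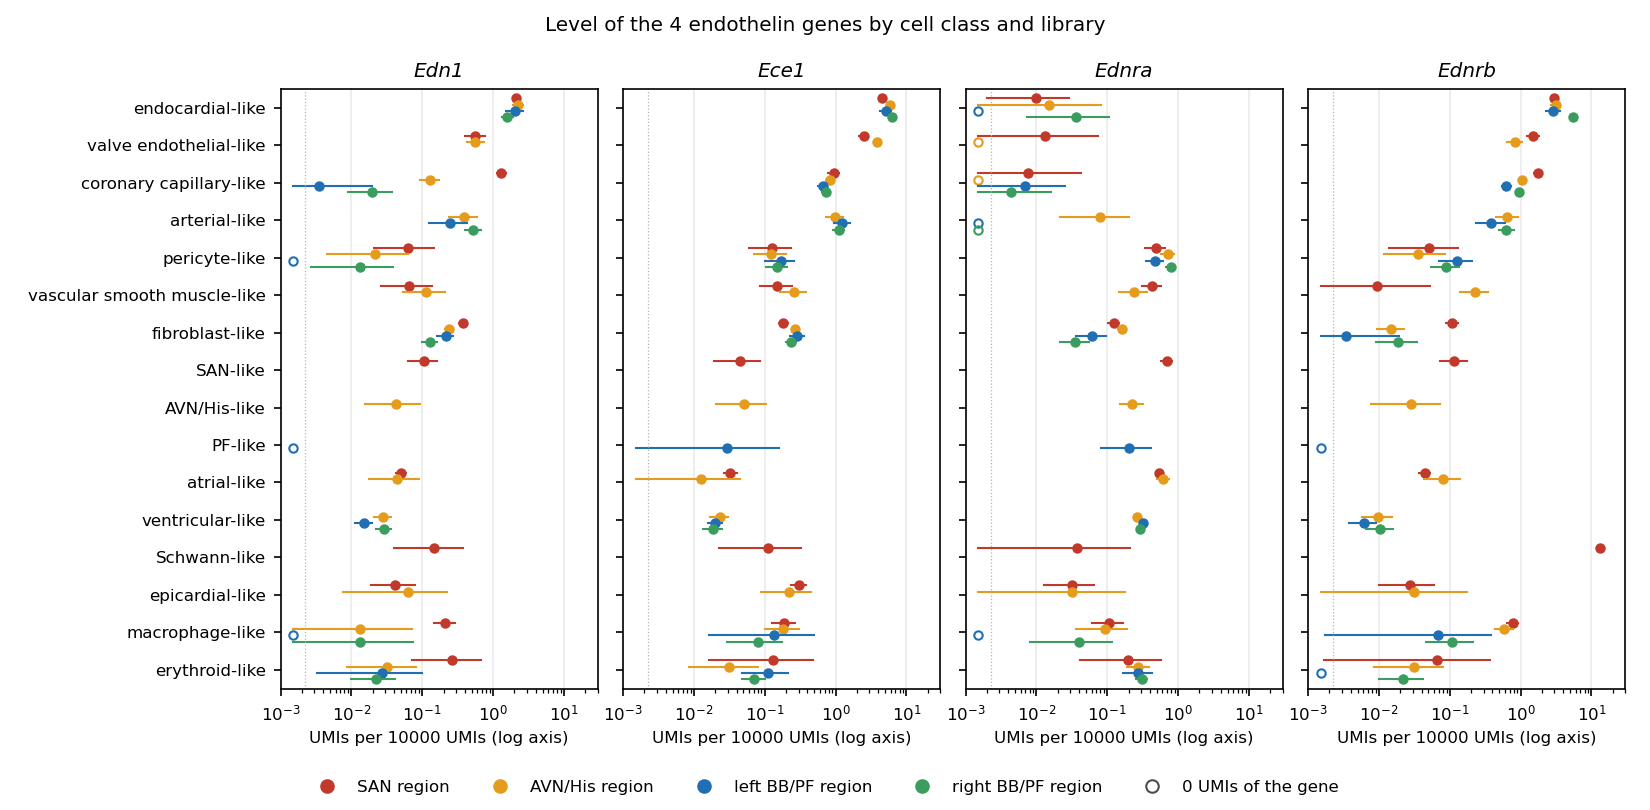
Level of each member in UMIs per 10000 (log axis) for each cell class, 1 point per library with its exact Poisson 95% interval; open circles are libraries with 0 UMIs of the gene. Among named endothelial classes with at least 20 cells in a library, Edn1, Ece1 and Ednrb are highest in endocardial-like cells, Ednra is highest in SAN-like, pericyte-like and atrial-like cells, and Schwann-like cells have the highest Ednrb level.

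Endocardial-like over capillary-like, the ratio of Edn1 levels within a library was 1.6 (1.35 to 1.90) in the SAN region, 17.9 (12.7 to 25.7) in the AVN/His region and 80.9 (41.4 to 181) in the right BB/PF region. In the left BB/PF region it was 586, with an interval of 101 to 23554 since the capillary-like count was 1 UMI. Edn1 was higher in endocardial-like cells in 4 of 4 libraries. With the counts of each class added up within each library and fitted by edgeR's quasi-likelihood method, the log2 difference was 3.26 (SE 0.53, adjusted p = 1.21e-05), and it was 2.71 to 5.04 with each library left out in turn.

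Arterial-like cells lay between capillary-like and endocardial-like cells in 3 libraries. They had 0.391 (0.239 to 0.603) UMIs of Edn1 per 10000 in the AVN/His region, 0.244 (0.126 to 0.427) in the left and 0.523 (0.397 to 0.676) in the right BB/PF region, where capillary-like cells had 0.127, 0.00348 and 0.0197. In the SAN region 18 arterial-like cells had 0.851 (0.578 to 1.21) against 1.31 in capillary-like cells, and being fewer than 20 they did not enter the test. Arterial over capillary, the log2 difference was 1.61 (SE 0.69) and did not pass (edgeR adjusted p = 0.145), but it passed at 3.09 (edgeR adjusted p = 1.71e-05) without the SAN library and at 3.53 (9.14e-06) without the Aplnr cluster. It also passed under other settings of the clustering, and the cause was not tested. Against endocardial-like cells the arterial ratio of Edn1 was 0.406, 0.172, 0.120 and 0.328, a log2 difference of -1.65 (SE 0.62) that missed the threshold (edgeR adjusted p = 0.0535). It passed without the SAN library, at -1.95. A cluster of 13 SAN cells led by Eln, Fbln5 and Sfrp2, genes of the extracellular matrix and of Wnt signalling, had 7 of 9 arterial markers but none among its leading genes, which included the endocardial marker Cytl1, and stayed unnamed. It held 46 Edn1 UMIs in 9 of its cells, a level of 3.33 (2.44 to 4.44), above the 2.10 of endocardial-like cells there, and 0 Ednrb UMIs.

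Outside the endothelium, fibroblast-like cells held more Edn1 UMIs than any other class in each library. In the BB/PF regions ventricular-like cells came near, with 25.5% and 16.8% of the Edn1 UMIs and 78.8% and 48.7% of the cells. Fibroblast-like cells held 22.2%, 45.4%, 29.7% and 18.4% of the Edn1 UMIs in the 4 libraries. They were 21.3%, 33.6%, 6.06% and 12.6% of the cells, so their part was near their share of cells in the SAN region. Their levels were 0.373 (0.336 to 0.413), 0.236, 0.214 and 0.129 (0.101 to 0.164) UMIs per 10000 in the SAN, AVN/His, left and right BB/PF regions, with 18.9%, 10.8%, 13.3% and 9.29% of cells positive, each above the macrophage-like share of its library. By cluster, Edn1 was at 0.526 in the 1141 fibroblast-like cells led by Ptn and Col1a1, whose leading genes included the early genes Fos and Cyr61, and at 0.0610 to 0.210 in the other 3 clusters. The 8 early genes summed to 57.0 per 10000 in the first cluster and to 17.9, 18.8 and 31.5 in the others. The SAN library gave 887 of the 1141 cells. Within that cluster Edn1 was at 0.453 in the SAN, 0.884 in the AVN/His and 0.162 in the right BB/PF region, where the early genes summed to 61.9, 38.3 and 52.1, so the SAN cells were not the highest in Edn1. Whether the early genes, the region or both moved Edn1 was not tested.

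Myocytes and mural cells had little Edn1. Atrial-like cells had 0.0506 and 0.0438, and ventricular-like cells 0.0281, 0.0149 and 0.0287 UMIs per 10000 at 1.32% to 5.26% of cells positive. SAN-like cells had 0.105 (0.0632 to 0.164) and AVN/His-like cells 0.0431. PF-like cells had 0 UMIs in 38 left and 18 right cells, which allows levels of up to 0.0870 and 0.179 per 10000. Pericyte-like cells had 0.0635, 0.0217, 0 and 0.0132 in the SAN, AVN/His, left and right BB/PF regions, and vascular smooth muscle-like cells 0.0659 in the SAN region and 0.113, from 10 UMIs, in the AVN/His region. Macrophage-like cells had 0.210, 0.0131, 0 and 0.0133 in the same libraries, so that smooth muscle-like cells lay below them in the SAN and above them in the AVN/His region.

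The converting enzyme gene Ece1 followed the endothelium more evenly. In endocardial-like cells it had 4.49 (4.26 to 4.74), 5.92 (5.36 to 6.54), 5.08 (4.27 to 6.01) and 6.22 (5.70 to 6.78) UMIs per 10000, a mean of 5.43 ± 0.79 (SD, n = 4 libraries), and 92.7% to 100% of cells held a UMI. Of Ece1, valve endothelial-like cells had 2.51 and 3.83, arterial-like cells 1.11 ± 0.13 (n = 3) and capillary-like cells 0.793 ± 0.123 (n = 4). The ranges of these 4 classes did not overlap, in libraries with at least 20 cells of a class. Only the AVN/His region had at least 20 cells of all 4 classes, so their full order was not compared between regions. The Ece1 ratio of arterial-like over capillary-like cells was 1.24, 1.18, 1.87 and 1.53 in the SAN, AVN/His, left and right BB/PF regions. Its interval spanned 1 in the SAN region, with 18 arterial-like cells, and in the AVN/His region. The fitted difference did not pass (edgeR adjusted p = 0.164).

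Endocardial over capillary, Ece1 differed by 4.73-fold (3.94 to 5.73) in the SAN region, 7.16-fold in the AVN/His region, 7.64-fold in the left and 8.52-fold (7.41 to 9.80) in the right BB/PF region. The fitted log2 difference was 2.61 (SE 0.18, edgeR adjusted p = 5.77e-13). All named non-endothelial classes were at or below 0.306 UMIs per 10000, which epicardial-like cells of the SAN region reached, and unnamed cardiomyocytes of the left BB/PF region, 83.6% of them over 1% hemoglobin, had 0.349 (42 UMIs in 55 cells). Of those 55 cells 23.6% held at least 3 endothelial markers. The unnamed cardiomyocytes of the BB/PF regions included a cluster of 21 cells led by Fabp4 and Fabp5, with the endothelial markers Kdr and Cdh5 among its leading genes. The part of such cells in the Ece1 level was not tested. Macrophage-like cells had 0.080 to 0.185, and the pericyte-like levels of 0.123 to 0.168 lay within that range.

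Ednra, the receptor of contractile cells, had the opposite distribution. SAN-like cells had 0.691 (0.575 to 0.823) UMIs per 10000. Pericyte-like cells had 0.483 (0.342 to 0.663), 0.716 (0.582 to 0.872), 0.469 (0.354 to 0.609) and 0.784 (0.673 to 0.908) in the SAN, AVN/His, left and right BB/PF regions, a mean of 0.613 ± 0.161 (SD, n = 4). Atrial-like cells had 0.534 (0.507 to 0.562) in the SAN region and 0.619 (0.503 to 0.754) in the AVN/His region. The pericyte-like range spanned the levels of the other 2 classes, so their order was not separated across libraries.

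Below them, vascular smooth muscle-like cells had 0.424 (0.309 to 0.567) and 0.236 (0.146 to 0.361), and ventricular-like cells 0.262, 0.319 and 0.290 UMIs of Ednra per 10000. AVN/His-like cells had 0.223 (0.151 to 0.316), and PF-like cells 0.203 (0.0816 to 0.418) from 7 UMIs in the left and 0.238 (0.0649 to 0.610) from 4 UMIs in the right BB/PF region. Fibroblast-like cells had 0.0356 to 0.161, the highest in the AVN/His region. There 990 of the 1897 fibroblast-like cells came from a cluster led by Sfrp2 and Mgp, which had 8 of 9 fibroblast markers, all but Tcf21. Its leading genes included Cthrc1, which was on the valve mesenchyme marker list, beside the fibroblast markers Dcn, Lum and Postn. That cluster had Ednra at 0.261 there, and the other fibroblast-like clusters of the region had 0.0665 to 0.0967. Its part in the comparisons with fibroblast-like cells was not tested. The whole endothelium was near 0: endocardial-like cells held 7 Ednra UMIs in 445 cells, capillary-like cells 5 in 749, arterial-like cells of 3 libraries 4 in 120 and valve endothelial-like cells of 2 libraries 1 in 170. An unnamed endothelial cluster of 108 cells, led by the myocyte genes Actc1 and Nppa, held 39 Ednra UMIs.

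Ednra in the conduction classes was set beside working myocytes of the same library. SAN-like over atrial-like, the ratio was 1.29 (1.07 to 1.55) in the SAN region. AVN/His-like over atrial-like it was 0.360 (0.232 to 0.543) in the AVN/His region, and there atrial-like over ventricular-like it was 2.37 (1.89 to 2.94). AVN/His-like over ventricular-like it was 0.851 (0.572 to 1.22), and PF-like over ventricular-like 0.637 (0.255 to 1.32) in the left and 0.822 (0.223 to 2.12) in the right BB/PF region. These 3 intervals span 1, so how AVN/His-like cells compared depended on the working myocytes chosen. Pericyte-like over ventricular-like, it was 2.74, 1.47 and 2.71 in the AVN/His, left and right BB/PF regions. Each of these compares cells of 1 library, so the intervals carry no spread between animals.

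Ednra was also found in 10.0% to 19.3% of the cells called erythroid-like, at 0.199 to 0.310 UMIs per 10000. This cluster was led by hemoglobin and mitochondrial genes, but outside the SAN region, where 60.0% of its 20 cells were over 1% hemoglobin, only 5.76% to 8.57% were. Outside the SAN region the data thus go against the name. Those cells held, in the SAN, AVN/His, left and right BB/PF regions, ventricular marker UMIs at 40.8, 219, 237 and 258 per 10000, and ventricular-like cells 310 to 317, with 7 of 7 markers present in every library. Pericyte-like cells held the same markers at 1.09 to 15.9 per 10000 and endocardial-like cells at 0.234 to 4.23, far below their level in ventricular-like cells. Among macrophage-like cells 0% to 5.88% held Ednra, so the pericyte-like shares of 28.0% to 44.0% and the atrial-like ones of 39.3% and 47.4% lay above that background.

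Ednrb, the receptor of endothelial and neural crest-derived cells, was highest in a small set of 39 Schwann-like cells of the SAN region. It had 13.4 (12.1 to 14.9) UMIs per 10000 there, with 361 UMIs and all 39 cells positive, 4.46-fold (3.94 to 5.04) the level of endocardial-like cells of the same library. These cells were 0.657% of the library and held 13.8% of its Ednrb UMIs. They came out of a first-round myocyte cluster, and Ednrb was among their leading genes although it was left out of the clustering.

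Among endothelial cells, 4 lymphatic-like cells of the SAN region had 4.08 (2.92 to 5.56) UMIs of Ednrb per 10000, all 40 UMIs coming from 2 cells, and 11 of the AVN/His region had 0.702. In endocardial-like cells Ednrb had 3.01 (2.81 to 3.21), 3.13 (2.72 to 3.58), 2.89 (2.29 to 3.61) and 5.41 (4.92 to 5.93) UMIs per 10000 in the SAN, AVN/His, left and right BB/PF regions. The right BB/PF library stood above the others. Within the larger endocardial-like cluster alone, led by Npr3, the levels were 3.08, 3.39, 4.02 and 5.55. Endocardial marker UMIs were highest in that library too, at 36.3 per 10000 against 23.2 to 28.1, and their part in the result was not tested.

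Capillary-like cells had 1.78 (1.56 to 2.02), 1.05 (0.943 to 1.16), 0.627 (0.539 to 0.726) and 0.948 (0.860 to 1.04) UMIs of Ednrb per 10000, and arterial-like cells 0.275, 0.645, 0.387 and 0.631. Endocardial over capillary, the ratio was 1.69 (1.46 to 1.96), 2.98, 4.62 and 5.71 (4.99 to 6.53), above 1 in 4 of 4 libraries and lowest in the SAN region. The fitted log2 difference was 1.64 (SE 0.36, edgeR adjusted p = 0.000614). Arterial over endocardial it was -2.36 (SE 0.47, edgeR adjusted p = 0.000338), and arterial over capillary -0.73 (SE 0.47, edgeR adjusted p = 0.399).

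Ednrb UMIs outside these classes were few, apart from macrophage-like cells. Those had 0.771 (0.642 to 0.919) in the SAN region, 0.588 (0.429 to 0.787) in the AVN/His region, 0.0685 in the left and 0.107 in the right BB/PF region. A UMI was found in 26.6% and 17.6% of macrophage-like cells in the SAN and AVN/His regions, against 5.0% and 2.09% of the cells called erythroid-like there. Ventricular-like cells had 0.00608 to 0.0105, and PF-like cells had 0 UMIs in both BB/PF regions, which allows up to 0.0870 and 0.179 per 10000.

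**Figure D2:**
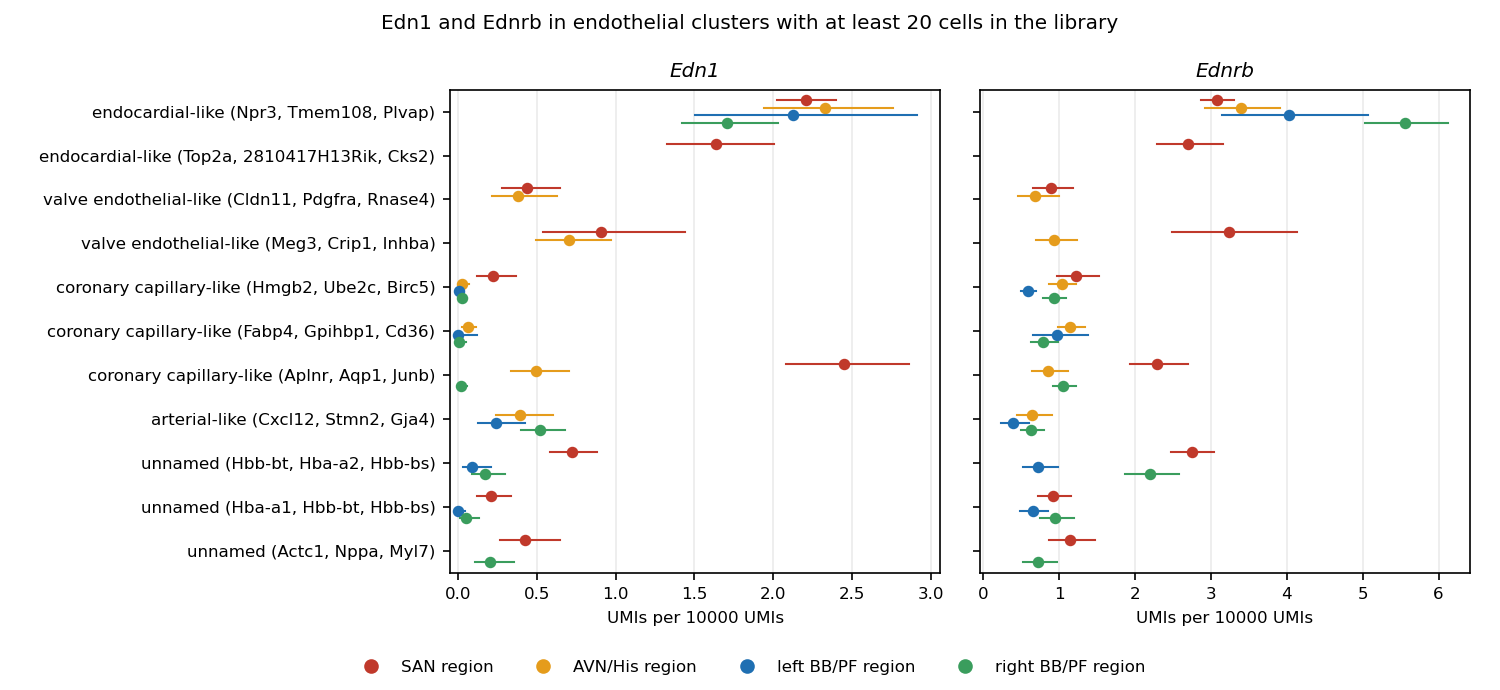
Edn1 (left) and Ednrb (right) in each endothelial cluster, named by class and its 3 leading genes, in UMIs per 10000 with exact Poisson 95% intervals, 1 point per library with at least 20 cells of the cluster. The capillary-like cluster led by Aplnr has 2.45 UMIs of Edn1 per 10000 in the SAN region and 0.497 and 0.0220 in the AVN/His and right BB/PF regions.

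Over whole libraries, endothelial cells held more of the Edn1, Ece1 and Ednrb UMIs than their share of cells or of all UMIs, and less of the Ednra UMIs. Endothelial cells of all kinds were 12.6%, 8.80%, 6.10% and 12.2% of the cells, and held 15.25%, 12.13%, 11.05% and 19.31% of all UMIs. They held 64.5%, 39.1%, 42.0% and 61.1% of the Edn1 UMIs, 83.5%, 69.6%, 69.7% and 82.2% of the Ece1 UMIs and 70.3%, 80.6%, 87.8% and 94.1% of the Ednrb UMIs. They held 1.78%, 0.735%, 0.390% and 1.6% of the Ednra UMIs, of which cardiomyocytes held 86.1%, 66.1%, 91.5% and 64.9%.

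**Figure D3:**
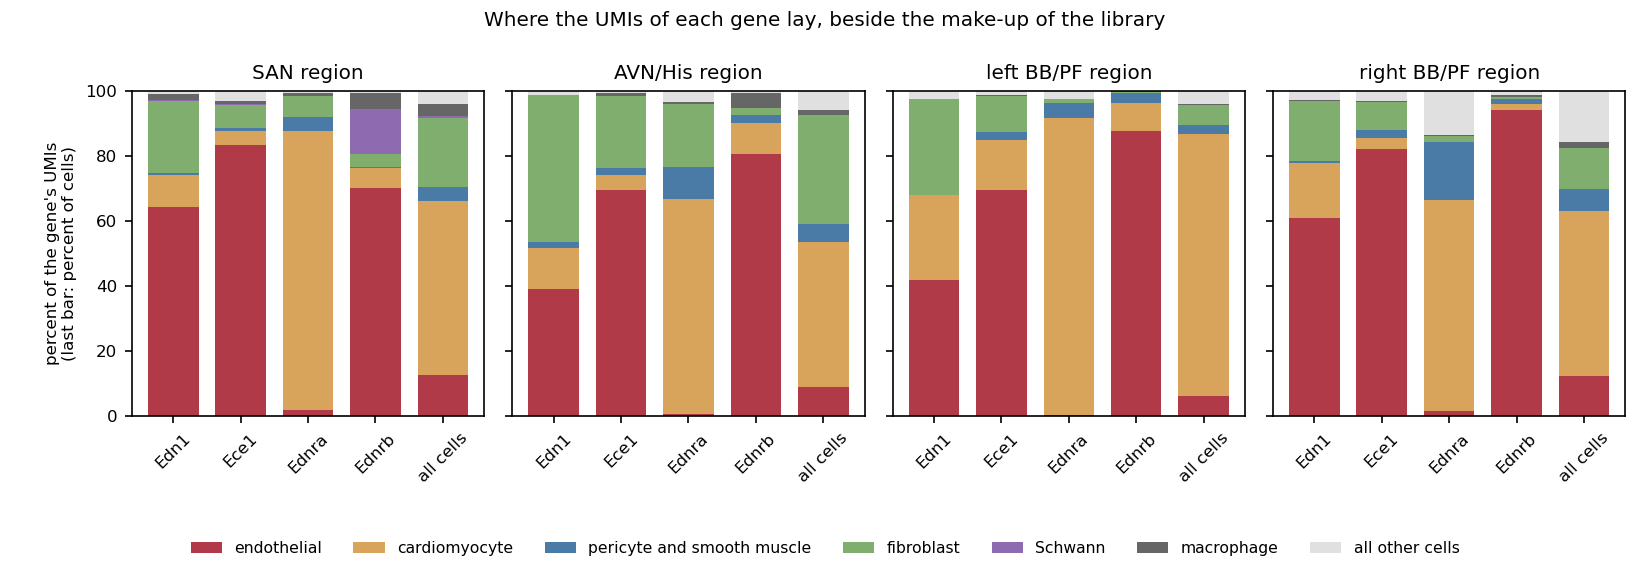
Percent of the UMIs of each member held by endothelial cells, cardiomyocytes, mural cells, fibroblasts, Schwann-like cells, macrophages and other cells, 1 panel per library, with the percent of cells in the last bar. Endothelial cells are 6.10% to 12.2% of cells in the BB/PF regions and hold 87.8% and 94.1% of Ednrb UMIs there.

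Within endocardial-like cells the members differed in how their UMIs were spread. Edn1 was at 0 UMIs in 43.1% of the 445 cells, with a median of 1 and up to 28 UMIs in a cell. The 88 cells with 3 to 5 UMIs held 32.7% of its 980 UMIs, the 46 with 6 to 10 held 35.1% and the 10 with more held 16.8%. Ece1 was at 0 in 5.84% of cells with a median of 5, and Ednrb at 0 in 16.9% with a median of 3. Ednra was at 0 in 98.7%.

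Cells with both ligand and receptor were common and about as many as the product of the single shares gives. Edn1 and Ednrb were found together in 132 of 262 endocardial-like cells of the SAN region, where the product gives 135, in 30 of 68 in the AVN/His region (29.5), 12 of 30 in the left (12.5) and 31 of 85 in the right BB/PF region (32.2). Of cells with Edn1 83.0%, 73.2%, 70.6% and 86.1% also held Ednrb, against 88.3%, 70.4%, 76.9% and 91.8% of those without it. These are counts of sparse UMIs and describe the cells at this depth.

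**Figure D4:**
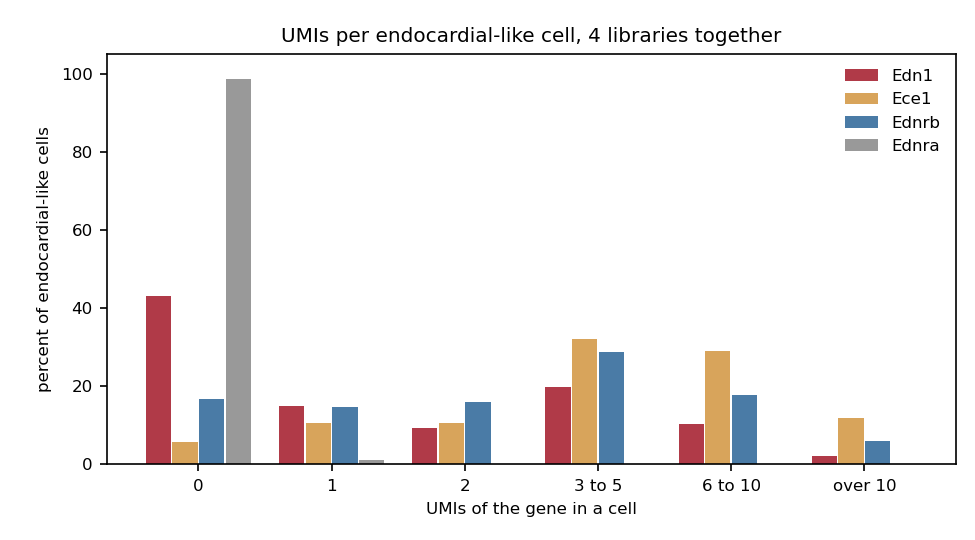
Percent of the 445 endocardial-like cells of the 4 libraries (y axis) by the number of UMIs of each member in a cell (x axis). Edn1 is at 0 UMIs in 43.1% of cells, Ece1 in 5.84%, Ednrb in 16.9% and Ednra in 98.7%.

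The class differences of all 4 members were fitted in 1 model over 42 sums of library and class and 13138 genes. Endothelial-like over cardiomyocyte-like cells, 3 members were higher and 1 lower, where 30.6% of all genes were called higher and 34.2% lower. The log2 differences were 4.14 (SE 0.50) for Edn1, 5.72 (SE 0.20) for Ece1 and 5.81 (SE 0.43) for Ednrb, and -5.45 (SE 0.35) for Ednra, with edgeR adjusted p of at most 7.86e-09. The size of the Ednra difference depends on the prior count, since the endothelial counts were at or near the floor of 3 UMIs.

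Endothelial-like over fibroblast-like cells, the same 3 members were higher and Ednra lower, where 21.1% of genes were called higher and 29.5% lower. Ece1 differed by 2.81 (SE 0.17, edgeR adjusted p = 1.00e-15), Ednrb by 5.26 (SE 0.44, 4.49e-12) and Ednra by -3.15 (SE 0.44, 3.36e-07) on the log2 scale. Edn1 differed by 1.45 (SE 0.43, edgeR adjusted p = 0.00570), and this fell to 0.58 (adjusted p = 0.104) without the Aplnr cluster. Within the endothelium, endocardial over capillary 3 members were higher and none lower, where 17.6% of genes were called higher and 16.6% lower. Ednra had at most 3 UMIs in a library in both classes and is not compared.

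Arterial-like over capillary-like cells, no member passed in edgeR's quasi-likelihood test, where 5.59% of genes were called higher and 6.26% lower. Edn1 and Ece1 had unadjusted p of 0.0260 and 0.0315, and DESeq2 called none. Ece1 passed without the SAN library (0.53, edgeR adjusted p = 0.0296). Arterial-like over endocardial-like cells, Ece1 (log2 difference -2.15, SE 0.21, edgeR adjusted p = 2.43e-09) and Ednrb were lower, where 10.4% of genes were called lower and 11.1% higher.

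Among the cells around the vessels, Ednra set pericyte-like cells off from fibroblast-like cells. Pericyte over fibroblast, its ratio was 3.92 in the SAN region, 4.46 in the AVN/His region, 7.67 in the left and 22.0 in the right BB/PF region, and the log2 difference was 2.68 (SE 0.29, edgeR adjusted p = 1.07e-08). Edn1 (-3.46, SE 0.91, adjusted p = 0.00532) and Ece1 (-0.75, SE 0.23, adjusted p = 0.0179) were lower in pericyte-like cells, where 9.27% of genes were called higher and 11.2% lower. Ednrb differed by 1.17 (SE 0.67) and did not pass (edgeR adjusted p = 0.243). Without the SAN library Ednrb passed at 2.59 (edgeR adjusted p = 0.00090). Of pericyte-like cells 3.61% to 14.7% held at least 3 endothelial markers, the most in the left BB/PF region, against 0% to 2.53% of fibroblast-like cells. The part of such cells in that Ednrb difference was not tested. Edn1 lost its call without the AVN/His library (-3.53, edgeR adjusted p = 0.0514), and Ece1 lost its call when any library but the SAN one was left out (-0.65 to -0.80).

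Vascular smooth muscle-like cells, present in the SAN and AVN/His regions only, had Ednra at 0.877 (0.557 to 1.39) and 0.330 (0.196 to 0.533) times the pericyte-like level. No member passed against pericyte-like cells in edgeR's test, where 6.61% of genes were called higher and 3.78% lower, and Ednra alone had an unadjusted p under the threshold. Its log2 difference was -1.01 (SE 0.41, edgeR unadjusted p = 0.0181, adjusted p = 0.117). Fibroblast-like over cardiomyocyte-like cells, Edn1 (2.70, SE 0.52, edgeR adjusted p = 2.96e-05) and Ece1 (2.91, SE 0.20, 2.19e-14) were higher and Ednra (-2.30, SE 0.26, 1.86e-09) lower, where 34.1% of genes were called higher and 31.1% lower. Ednrb differed by 0.55 (SE 0.49, edgeR adjusted p = 0.334), and by -1.15 without the SAN library.

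**Figure D5:**
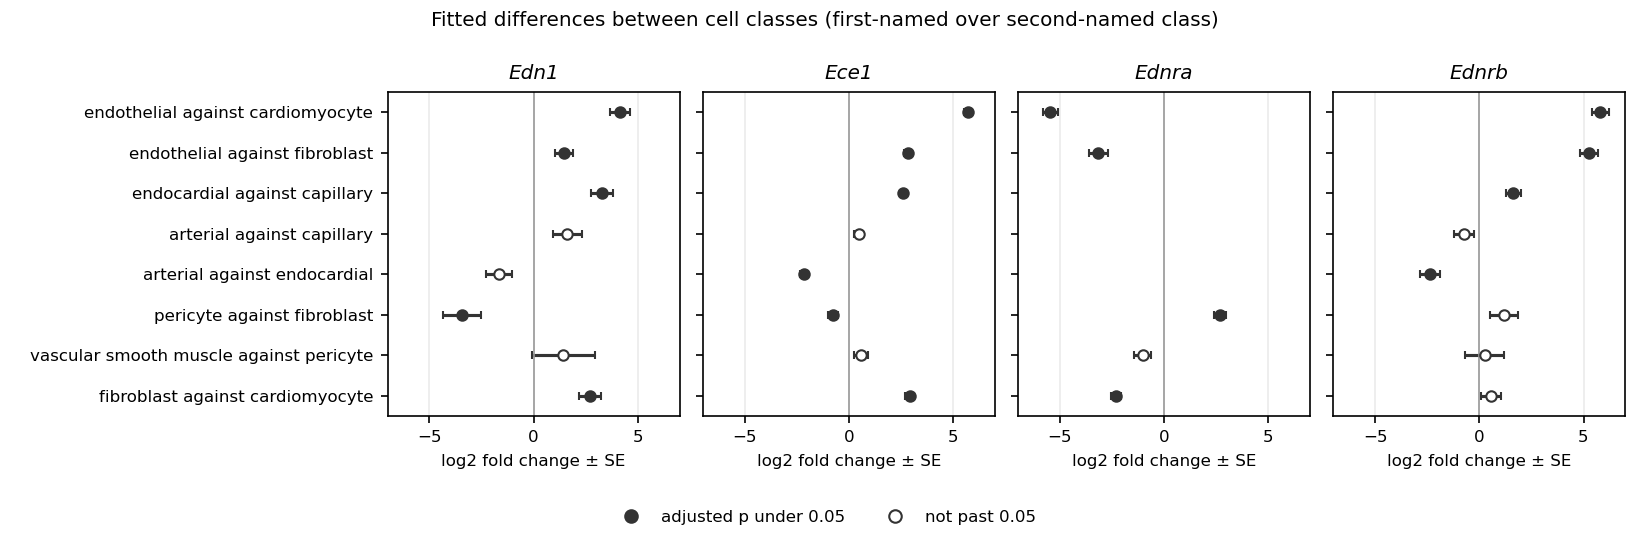
Log2 difference ± SE of each member in the 8 class contrasts, first-named over second-named class, from edgeR's quasi-likelihood fit; filled points passed an adjusted p of 0.05 and Ednra is left out where both classes were at or under the floor. Ednra lies below 0 and the other members above 0 in the endothelial contrasts with cardiomyocytes and fibroblasts.

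A list of 55 further genes of the pathway was followed in the same fit, of which 49 passed the filter on low counts. Endothelial-like over cardiomyocyte-like cells, 29 were higher and 10 lower, 59.2% and 20.4% of the list against 30.6% and 34.2% of all genes, with a median log2 difference of 0.83 where that of all genes was -0.07. The largest were Gata2 (7.19, SE 0.49), a transcription factor that binds the Edn1 promoter, Klf2 (5.63, SE 0.36), a flow-induced factor, and Nos3 (5.27, SE 0.24), the endothelial nitric oxide synthase that Ednrb acts on. Their edgeR adjusted p was at most 2.57e-14. All 3 had been put on the list as endothelial counterparts or regulators of Edn1, so part of the excess was built into the list. Klf2 was also higher in fibroblast-like than in cardiomyocyte-like cells, by 5.14 (SE 0.37, edgeR adjusted p = 7.42e-14), so its difference from cardiomyocytes was not particular to the endothelium.

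Endocardial over capillary, 12 of the 49 were higher and 10 lower, 24.5% and 20.4% against 17.6% and 16.6% of all genes, with a median of 0.17 where that of all genes was 0.04. Hand2, which endothelin signalling induces in pharyngeal arch neural crest, was higher by 4.69 (SE 0.27, edgeR adjusted p = 1.33e-14), and Pcsk5, a proprotein convertase gene, by 2.28 (SE 0.39). Rgs2, which damps Gq signalling, was lower by -3.90 (SE 0.59) and Gnas by -2.30 (SE 0.24). Arterial over capillary, 7 were higher and 1 lower (14.3% and 2.04%, against 5.59% and 6.26% of all genes), led by Pcsk5 (4.55, SE 0.34) and Rgs5 (3.55, SE 0.60), and arterial over endocardial 14 were higher and 7 lower (28.6% and 14.3%, against 11.1% and 10.4%), with medians of 0.14 and 0.13 where those of all genes were 0.00 and -0.08.

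Around the vessels, Rgs5 and Rgs4, which also damp Gq signalling, led the 15 of 49 genes higher in pericyte-like than in fibroblast-like cells (30.6% against 9.27% of all genes, list median 0.20, all genes -0.05), at 4.83 (SE 0.47) and 4.36 (SE 0.35). Rgs5 was among the markers that named the pericyte-like class, so its difference is no finding. Mme, the gene of neprilysin, which breaks endothelin down, led the 11 that were lower (22.4% against 11.2% of all genes), at -4.00 (SE 0.51, edgeR adjusted p = 3.75e-07). Mme had 0.119 to 0.231 UMIs per 10000 in fibroblast-like cells and 0 or 1 UMI per library in endocardial-like and capillary-like cells.

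Endothelial over fibroblast, 26 were higher and 8 lower, 53.1% and 16.3% against 21.1% and 29.5% of all genes (list median 0.49, all genes -0.12). The genes listed as endothelial counterparts or regulators of Edn1 bear on this excess too. Smooth muscle over pericyte, 5 were higher and 6 lower, 10.2% and 12.2% against 6.61% and 3.78% (-0.17, all genes -0.02). Fibroblast over cardiomyocyte, 22 were higher and 16 lower, 44.9% and 32.7% against 34.1% and 31.1%, of which the lower share is near that of all genes (0.22, all genes 0.05). The other ligand genes were scarce. Edn2 had 67 UMIs in all cells, 41 of them in epicardial-like cells of the SAN region, and Edn3 had 29. Edn2 was called lower in endothelial-like than in cardiomyocyte-like cells (-2.92, SE 1.21, edgeR adjusted p = 0.0431) and in fibroblast-like than in cardiomyocyte-like cells (-2.06, SE 0.82, edgeR adjusted p = 0.0361). These fits rest on at most 8 Edn2 UMIs in any library of a working myocyte class, and their size depends on the prior count.

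The genes whose level followed each member most closely over the 42 sums, among 6595 genes, are given as a description, since sums of 1 library share cells and depth. For Edn1 they were Bmx (Pearson r = 0.897), Wipf3 (0.896), Vwf (0.886) and Tmem100 (0.883), of which Bmx and Vwf were among the markers used to name arterial-like and endocardial-like cells. For Ece1 they were Tek (0.947), Taok2, Acer2 and Klhl4 (0.927), and Tek was an endothelial marker. For Ednra they were Myl9 (0.896), Parm1, Cacna2d1 and Klhl23 (0.867), and for Ednrb Arap3 (0.832), Tmod2, Ppm1f and St6galnac3 (0.815). Among the members, r was 0.843 for Edn1 with Ece1, 0.754 for Ece1 with Ednrb and 0.698 for Edn1 with Ednrb, and -0.520 to -0.690 for Ednra with the others.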

How the data were processed

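The authors deposited UMI counts per gene and cell, made from the 3' reads with Cell Ranger against mm10; the release of Cell Ranger and the annotation are not given in the sources used here. The deposited counts carry no normalization. Cells with at least 500 genes and 1000 UMIs were kept. Counts were scaled to 10000 per cell, UMI number and ribosomal share were regressed out, and 2000 variable genes without the endothelin list, 10 principal components, 30 neighbors gave Leiden clusters (leidenalg 0.10.2 under scanpy 1.11.5), named by marker lists. Conduction classes also had to show Shox2, Tbx3 or Irx3, a rule chosen after the clusters were seen. Doublets stayed in: Scrublet's automatic threshold marked 123, 117, 3 and 0 cells and so did not work in the BB/PF libraries, and leaving out cells above a score of 0.2 was an alternative.

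Counts were summed per library and class of at least 20 cells and fitted in edgeR 4.0.16 (R 4.3.3; TMM, quasi-likelihood, library and class as terms, 23 residual degrees of freedom), with Benjamini-Hochberg adjustment over 13138 genes at 0.05. Since a class is compared within libraries, its spread is that between regions, which may hold technical differences. DESeq2 1.42.0 was an alternative. The fit was tested on simulated data.

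The rule takes the members by symbol, but it and the lists were chosen with earlier results of these data known. Named genes were the 4 members, a pathway list of 59 genes including them (per contrast the 3 largest called differences each way), and the 4 genes nearest each member in Pearson r of log2(UMIs per 10000 + 0.1). Intervals are at 95%, and a count of 0 was read as up to 3 counts. Thinning drew 1500 UMIs per cell.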

Additional observations from a re-analysis of the deposited data

Results flagged for a closer look

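In 24 sets of 1 gene, 1 class and 4 libraries, 5 held a library whose gap to the next was most of the range. The chance rate of this rule, about 1 in 20, is for independent values. These sets share the same 4 libraries and some rest on few UMIs, so no excess over chance can be read from them. The 4 libraries are 4 regions, so a library apart is also a region apart, and the 2 cannot be told apart.

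Edn1 was far higher in the SAN region than in the other 3 libraries in coronary capillary-like cells (1.31 UMIs per 10000), in macrophage-like cells (0.210, from 34 UMIs) and in the cells called erythroid-like (0.266, from 4 UMIs in 20 cells). Ednrb was apart in endocardial-like cells of the right BB/PF region (5.41) and in fibroblast-like cells of the SAN region (0.106).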

How the results depend on the processing

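Each contrast was refitted under up to 22 alternatives. The differences of all 4 members between endothelial-like and cardiomyocyte-like cells, those of Ece1, Ednra and Ednrb between endothelial-like and fibroblast-like cells, those of Edn1, Ece1 and Ednrb between endocardial-like and capillary-like cells, those of Ece1 and Ednrb between arterial-like and endocardial-like cells, those of Edn1, Ece1 and Ednra between fibroblast-like and cardiomyocyte-like cells, and that of Ednra between pericyte-like and fibroblast-like cells kept their direction and their call under every alternative run. The Edn1 difference between endocardial-like and capillary-like cells ranged from 2.62 to 5.31 on the log2 scale. The labels pair no animals across libraries, so the block stands for the region: with no replicate block that Edn1 difference was 2.62, Edn1 arterial over capillary was 0.48, and no call of a member changed.

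Edn1 endothelial over fibroblast no longer passed with no regression (0.69), with DESeq2 (1.25, adjusted p = 0.0887) and without the Aplnr cluster, an alternative chosen after seeing the data (0.58). Edn1 arterial over capillary passed at 0.5 times the resolution (5.07), at 1.5 times (2.52), with 20 principal components (3.66), with all variable genes (3.61), with no regression (4.28), with only the classes of the contrast (3.19) and without the Aplnr cluster (3.53). Without a library it ranged from 0.68 to 3.09. Ece1 in that contrast passed at 0.5 times the resolution (1.17), with all variable genes (0.75), without the Aplnr cluster (0.70), with no regression (0.66) and with only the classes of the contrast (0.57), and without a library ranged from 0.26 to 0.55. Ednrb there passed with only the classes of the contrast (-0.67).

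Edn1 arterial over endocardial turned to 0.36 at 0.5 times the resolution. It passed at 1.5 times (-1.65), with all variable genes (-1.56), without the Aplnr cluster (-1.77), without cells of mixed markers (-1.67), without cells with a Scrublet score of at least 0.2 (-1.70), with no filter on low counts (-1.59) and with only the classes of the contrast (-2.09). Without a library it ranged from -2.13 to -1.28. Pericyte over fibroblast, Ece1 no longer passed with thinned cells (-0.93), with each library clustered alone (-0.62) and with DESeq2 (-0.75), and ranged from -0.83 to -0.65 without a library, Edn1 from -3.88 to -3.10 and Ednrb from 0.59 to 2.59. Ednrb passed there at 1.5 times the resolution (2.06) and with each library clustered alone (2.31).

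Smooth muscle over pericyte, Edn1 passed at 1.5 times the resolution (4.55). Ednra passed there (-1.12), with 20 principal components (-1.49) and with no regression (-1.07). Ednrb turned to -0.41 at 1.5 times the resolution, -0.066 with all variable genes, -1.34 with thinned cells, -0.28 with each library clustered alone and -0.039 with no regression, and ranged from -3.89 to 1.33 without a library. Fibroblast over cardiomyocyte, Ednrb turned to -0.42 at 1.5 times the resolution, -0.12 with all variable genes and -0.19 with each library clustered alone, and ranged from -1.15 to 1.08 without a library. The contrast of smooth muscle-like and pericyte-like cells could not be fitted at 0.5 times the resolution. The cause was not tested for any of these.

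Thinning to 1500 UMIs leaves fewer counts. It gave 1855 genes higher and 2462 lower for endothelial over cardiomyocyte, 948 and 1836 for endothelial over fibroblast, 601 and 698 for endocardial over capillary, 85 and 147 for arterial over capillary, 287 and 287 for arterial over endocardial, 563 and 718 for pericyte over fibroblast, 390 and 233 for smooth muscle over pericyte and 2803 and 2354 for fibroblast over cardiomyocyte. Arterial over capillary gave 468 and 531 at 0.5 times the resolution, 468 higher with 20 principal components, 440 and 465 without cells over 1% hemoglobin and 284 and 213 with each library clustered alone. Arterial over endocardial gave 484 and 302 at 0.5 times the resolution, 737 lower with 20 principal components and 698 and 487 with each library clustered alone. Each library clustered alone gave 1365 lower for endocardial over capillary, 976 lower for pericyte over fibroblast, and 554 and 300 for smooth muscle over pericyte. That contrast had 821 lower at 1.5 times the resolution, 898 with 20 principal components and 330 with all variable genes.

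Without a library, counts of genes called higher and lower ranged from 1528 to 1881 and 1263 to 2565 for endocardial over capillary, 296 to 784 and 390 to 992 for arterial over capillary, 766 to 1685 and 592 to 1229 for arterial over endocardial, 787 to 1311 and 892 to 1605 for pericyte over fibroblast, and 270 to 740 and 93 to 555 for smooth muscle over pericyte. Of 168 levels, 86 stayed within their own interval with thinned cells and 108 of the 128 that could be compared did at 0.5 times the resolution. With thinned cells 5.84% of endocardial-like cells held both Edn1 and Ednrb. PF-like cells were 38 and 18, and their levels rest on 0 to 7 UMIs of a member.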

Other observations

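The 8 immediate early genes, a list chosen after the clusters had been seen, summed in the SAN library to 58.1 UMIs per 10000 in fibroblast-like, 51.4 in macrophage-like, 13.3 in capillary-like and 6.51 in the cells called erythroid-like. In the other 3 libraries they summed to 17.7 to 27.5, 19.9 to 54.9, 7.57 to 14.1 and 0.782 to 1.02 in these classes. Edn1 was highest in the SAN library in all 4 of these classes. Of the 4, the early genes were highest there in fibroblast-like and erythroid-like cells only. In pericyte-like cells both were highest there, the early genes at 24.3 against 7.37 to 13.8 and Edn1 at 0.0635 against 0 to 0.0217. The same held in unnamed endothelial cells, with early genes at 9.01 against 5.89 to 8.03 and Edn1 at 0.697 against 0.0641 to 0.258. In endocardial-like cells the early genes were at 6.18 in the SAN library and at 2.75 to 3.26 in the others, where Edn1 was at 2.10 in the SAN library and at 1.6 to 2.28 in the others. Their part in the Edn1 levels was not tested.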
